A study of Mus musculus with 6 samples.

Results

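The naive pluripotency transcription factor core was followed as 9 genes, Nanog, Esrrb, Tfcp2l1, Tbx3, Prdm14, Nr5a2, Nr0b1, Zfp42 and Tcl1, out of the 51912 Ensembl genes of the deposited count table. The members were chosen by symbol, with earlier results of these data known, and each symbol matched 1 row. Setting them beside all genes is therefore a description and not independent evidence. All 9 passed the filter on low counts. Messenger RNA came from R1 mouse embryonic stem cells, an established line that had been kept naive in 2iLIF, a medium with inhibitors of MEK and GSK3 and the cytokine LIF. The cells were then moved into N2B27, a serum-free medium, with 100 ng/ml FGF2, and sampled at 24 h (3 libraries) and at 48 h (3 libraries). Both groups carry the same line, medium and FGF2 and differ only in time. The labels name no genotype or added allele, do not give how many cultures the replicates came from, and rest on a single line. The p-values therefore measure the spread between these libraries, which may be technical. Cells still in 2iLIF and cells without FGF2 were not analysed here, so 24 h is the reference for every level below and the effect of FGF2 cannot be told apart from those of the medium change and of time.

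In naive embryonic stem cells, a set of transcription factors holds self-renewal in place and is fed by LIF acting through STAT3 and by WNT signalling acting through beta-catenin. Fibroblast growth factor signalling through ERK moves the cells out of this state toward a formative state, while Pou5f1 and Sox2 stay on in both. Nanog is a homeodomain factor of that network, Esrrb and Nr5a2 are orphan nuclear receptors, and Nr0b1 is an atypical nuclear receptor that works mainly as a corepressor. Tfcp2l1 and Tbx3 lie downstream of LIF and WNT inputs, and Prdm14 is a PR-domain protein known for repressing de novo DNA methyltransferase genes. Zfp42, also called Rex1, is a zinc finger protein used as a reporter of the naive state. Tcl1 is not a DNA-binding factor but a cofactor of AKT kinases whose gene is active in these cells.

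The cells carried the markers of their label. The 6 embryonic stem cell markers Pou5f1, Sox2, Sall4, Utf1, Lin28a and Dppa4 summed to between 2319 and 2344 CPM (counts scaled to a common library total by TMM) at 24 h and between 2722 and 2767 at 48 h. Libraries held between 19574969 and 23133148 counts. Of 6 feeder fibroblast markers, Postn and Lum were at 0 in every library and the list summed to at most 3.35 CPM. Thy1 held 20 to 42 counts and was not called, and Col1a1, on 4 to 30 counts, fell by 1.76 on the log2 scale. Primitive endoderm (7 genes), trophectoderm (6) and mesendoderm (5) lists summed to at most 11.2, 13.4 and 18.5 CPM at 24 h and at most 6.44, 5.67 and 14.8 at 48 h. Gata6, Cdx2 and T, a defining gene of each, had at most 9, 1 and 2 counts in a library. Other members were detected and fell, Tfap2c by 2.09, Gata4 by 1.38, Plet1 by 0.90 and Eomes by 0.29 on the log2 scale, Eomes with 273 to 361 counts. The neural list (5 genes) moved with time, from between 29.3 and 31.0 to between 75.6 and 79.7 CPM. Pax6 (log2 fold change 1.56), Sox1 (1.31) and Map2 (0.88) rose, and Neurog2 had 3 counts or fewer. The sum of the 2-cell-like list (6 genes) also moved, from between 226.1 and 239.7 to between 319.2 and 330.1 CPM. Of this list Zscan4c (0.30), Zscan4d (0.56) and Zscan4f (0.63) rose, and their counts were partly divided between similar genes. Tcstv1 (0.10), Usp17la (0.16) and Tcstv3 (-0.32) were not called. The part of these lists in the results was not tested.

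Every member of the core was lower at 48 h than at 24 h. The quasi-likelihood test of edgeR, run across 14889 genes, called all 9 at an adjusted p below 0.05, where 62.8% of all genes passed in either direction, 31.9% were called lower and 30.9% higher. In all 9 the libraries of the 2 times did not overlap, as was the case with 48 h lower for 34.2% of all genes and with 48 h higher for 32.7%. The median log2 fold change of the members was -1.99, against -0.01 over all tested genes. In these bulk samples, fewer cells with a gene on and less RNA of it per cell cannot be told apart. The members differed from one another in how much was left. Tbx3 kept 8.40% of its 24 h level (95% interval 7.61 to 9.27), Prdm14 17.3% (15.3 to 19.5) and Tcl1 18.3% (16.8 to 19.96). Next came Tfcp2l1 with 21.0% (20.2 to 22.0) and Nanog with 25.1% (24.1 to 26.2). The nuclear receptors Nr5a2 and Esrrb kept 32.1% (30.3 to 34.0) and 36.0% (34.9 to 37.1). Zfp42 kept 47.8% (46.1 to 49.6), and Nr0b1, the member that fell least, 78.1% (74.6 to 81.7).

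**Figure D1:**
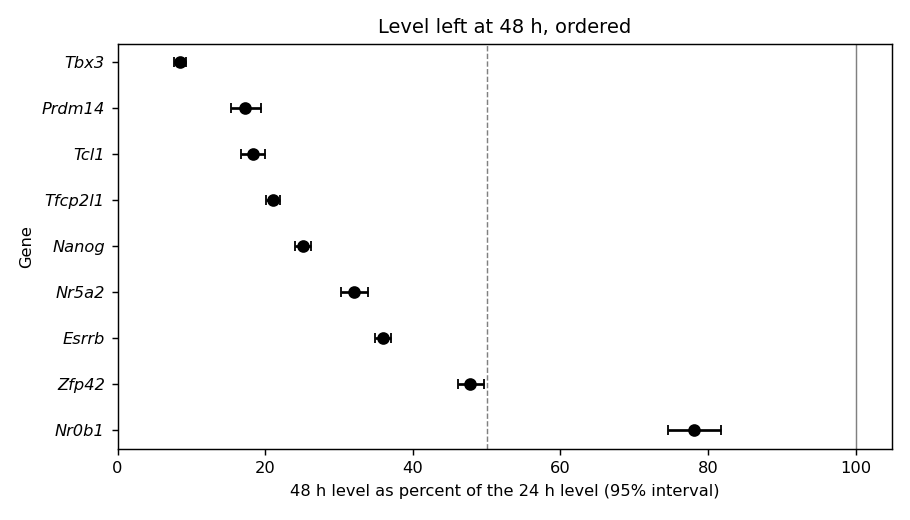
Level at 48 h as a percent of the 24 h level for each of the 9 genes (points), with the 95% interval of the edgeR fit (bars), ordered from least to most left; the dashed line marks 50% and the solid line 100%. Tbx3 stands lowest at 8.40%, Zfp42 just under the dashed line at 47.8%, and Nr0b1 alone to its right at 78.1%.

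A fall of more than 2-fold was tested directly with edgeR's glmTreat. It called 8 of the 9 members, where 3.39% of all genes were called lower by that rule. Nr0b1 was not called (adjusted p = 1.0 by glmTreat). Zfp42 lay at the border, with an adjusted p of 0.0413 by glmTreat and from 0.000292 to 0.464 over 13 alternative fits. It lost that call with RLE scaling (adjusted p = 0.0749) and without 24 h replicate 2 (0.1), 24 h replicate 3 (0.101) or 48 h replicate 2 (0.464). It also missed a threshold of 0.01. The other 7 kept the call in all 13.

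Nanog was the second most abundant member per transcript length and its fall was the median of the 9. It maps to chr6:122707489-122714633 on the plus strand (GRCm38, protein-coding, as are all members). Its 24 h libraries held 677.7, 683.4 and 723.0 CPM and its 48 h libraries 177.9, 166.9 and 178.3 CPM. The lowest 24 h library was far above the highest 48 h library. On the log2 scale it changed by -1.99 with an SE of 0.03 (adjusted p = 4.72e-18, edgeR). The pseudogenes Nanog-ps1 and Nanog-ps2 had 0 counts in every library, and the counts of Nanog were whole numbers, with no fractional division seen. Whole counts cannot tell reads unique to Nanog from shared reads given wholly to it.

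The 3 nuclear receptor genes did not fall alike. Esrrb (chr12:86361117-86521628, plus strand), which binds DNA as a monomer and can stand in for Nanog in self-renewal, went from 556.6, 567.9 and 582.0 CPM at 24 h to 204.4, 204.4 and 205.5 CPM at 48 h. The 48 h libraries lay almost on top of each other, with an SD of 0.304% of the mean. Its log2 fold change was -1.47 ± 0.02 (standard error, adjusted p = 4.72e-18, edgeR). Nr5a2 (chr1:136842571-136960448, minus strand), a receptor that can drive Pou5f1, went from 87.5, 82.9 and 86.0 CPM to 26.8, 27.5 and 27.97 CPM. Its libraries were tight at both times, and the log2 fold change was -1.64 ± 0.04 (adjusted p = 1.85e-15). Nr0b1 (chrX:86191764-86195947, plus strand), also known as Dax1, held 137.5, 145.8 and 137.2 CPM at 24 h and 111.6, 106.1 and 110.6 CPM at 48 h. The groups were separate, but the gap between them was small. The log2 fold change was -0.36 ± 0.03 (adjusted p = 3.36e-08, edgeR), and 22% of all tested genes had a more negative one.

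Tfcp2l1 and Tbx3, both placed downstream of LIF and WNT inputs, differed in how much was left. Tfcp2l1 (chr1:118627945-118685168, plus strand) went from 288.4, 288.2 and 304.5 CPM to 62.4, 62.6 and 60.5 CPM. Its log2 fold change was -2.25 ± 0.03 (adjusted p = 2.67e-18, edgeR). It was the only member with fractional counts in any library, in all 6, so some of its reads were divided with other genes. Gm23497, a small gene that overlaps it on the same strand, had at most 13.0 counts. Tbx3 (chr5:119670669-119684724, plus strand), a T-box factor, fell most of the 9. It went from 158.9, 157.1 and 184.4 CPM at 24 h to 14.7, 13.3 and 14.1 CPM at 48 h. The third 24 h library stood above the other two, by far less than the fall. The log2 fold change was -3.57 ± 0.07 (adjusted p = 1.09e-16, edgeR), and 0.201% of all tested genes had a more negative one. Tbx3 shares exon sequence with Tbx3os1 on the opposite strand, which held from 13 to 23 counts at 24 h and from 1 to 3 at 48 h beside 3174 to 4351 and 291 to 320 for Tbx3. Whether the counting used strand is not given in the sources used here, so reads of the pair cannot be told apart with certainty.

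Prdm14 and Tcl1, the members with the fewest counts, kept similar shares. Prdm14 (chr1:13113457-13127163, minus strand) went from 34.0, 32.4 and 34.9 CPM to 6.58, 4.98 and 5.95 CPM. It rested on 143, 109 and 132 counts at 48 h, the lowest of any member, and its libraries spread there by 13.8% of the mean. The log2 fold change was -2.53 ± 0.08 (adjusted p = 1.04e-13, edgeR). Tcl1 (chr12:105216750-105222793, minus strand) went from 61.0, 59.2 and 62.0 CPM to 12.6, 10.2 and 10.6 CPM. Its 48 h spread was 11.5% of the mean, and the log2 fold change was -2.45 ± 0.06 (adjusted p = 2.16e-15). For both genes the groups lay far apart.

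Zfp42 (chr8:43295063-43306980, minus strand) was the most abundant member per length at both times. Its 24 h libraries held 1024, 1037 and 1042 CPM and its 48 h libraries 505.8, 467.4 and 510.7 CPM. The groups did not overlap, and replicate 2 was the low library at 48 h. The log2 fold change was -1.06 ± 0.03 (adjusted p = 1.68e-15, edgeR).

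**Figure D2:**
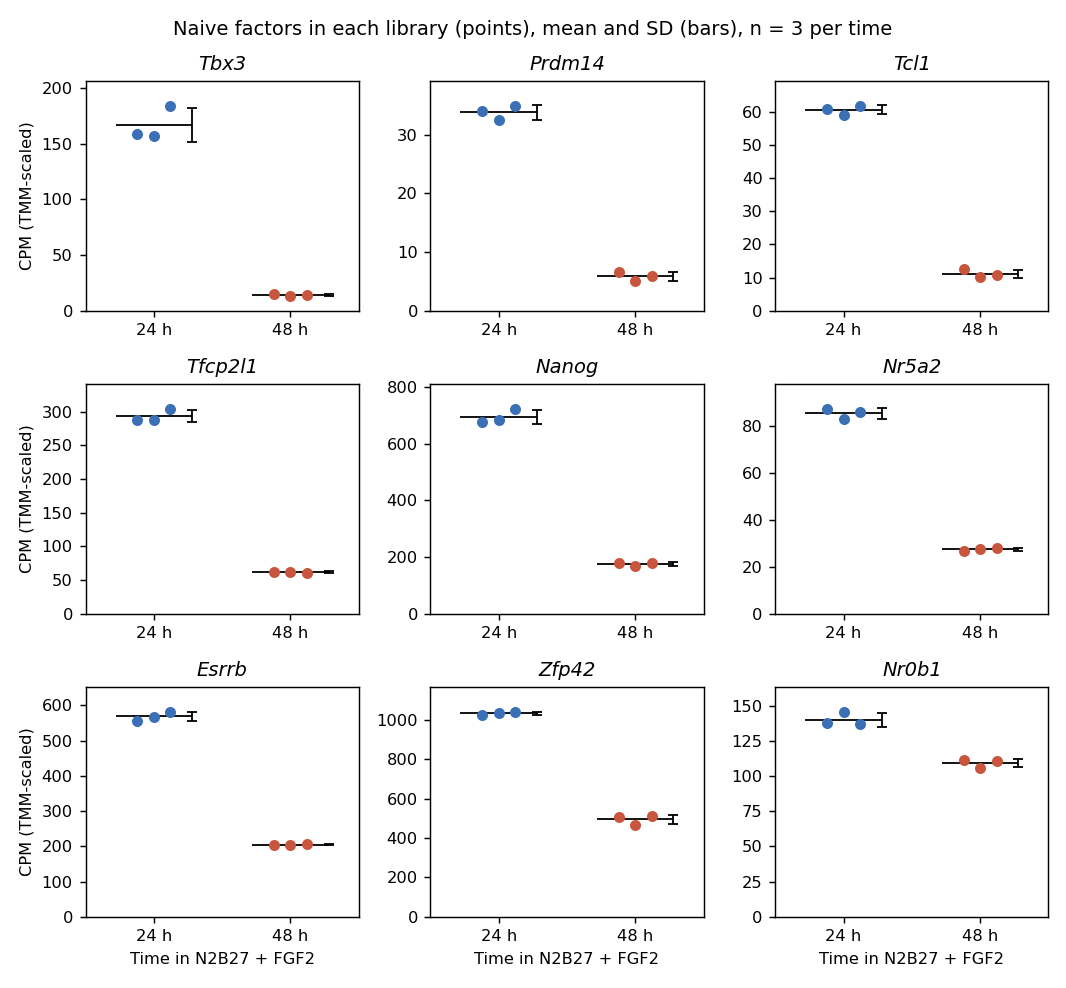
CPM of each gene in each library (points, 3 at 24 h in blue and 3 at 48 h in red), with the mean (horizontal line) and SD (error bar); each panel has its own axis from 0. In all 9 panels every 48 h point lies below every 24 h point, by the least for Nr0b1.

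Some libraries stood high or low across the core. Replicate 3 of 24 h was the highest of its time for 7 of the 9 members, and replicate 2 of 48 h the lowest of its time for 6 of the 9. Leaving out any 1 library did not change the order of the 9 by remaining level. That order was the same in all 15 alternative fits. Over those fits Tbx3 kept from 8.06% to 8.87%, Nanog from 24.1% to 25.7%, Zfp42 from 45.9% to 49.2% and Nr0b1 from 74.9% to 79.6%. With library size as the only scaling, the median of all genes moved from -0.01 to -0.07 on the log2 scale.

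Neighbours in the order were compared by the log2 ratio of their counts within each library, which no scaling between libraries can move. A two-sided exact permutation test was made for each of the 8 pairs. With 3 against 3 libraries an exact permutation p cannot go below 0.1, so no pair could pass 0.05. The pairs came from the order of remaining level in these same libraries, so the direction of each change was set beforehand. The overlaps are therefore a description and not a test of the order, and no share over other gene pairs was computed. For 7 of the 8 pairs the ratio did not overlap between the times (exact permutation p = 0.1, adjusted over the 8 pairs 0.114). The exception was Prdm14 and Tcl1. Their ratio changed by -0.09 on the log2 scale, the times overlapped (exact permutation p = 0.3, adjusted 0.3), and changes between -0.20 and 0.03 were seen between single libraries. Without 48 h replicate 2 their ratio changed by -0.04, and without 48 h replicate 3 by -0.13. Their order is therefore not resolved beyond the spread. The steps were largest at both ends. From Tbx3 to Prdm14 the ratio changed by -1.03, and from Zfp42 to Nr0b1 by -0.71. Between these, Esrrb against Zfp42 changed by -0.41, Nanog against Nr5a2 by -0.36, Tfcp2l1 against Nanog by -0.25, Tcl1 against Tfcp2l1 by -0.21 and Nr5a2 against Esrrb by -0.17. For Tcl1 against Tfcp2l1 the times were parted by 0.015, and the change was -0.14 without 48 h replicate 2.

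Levels were then set side by side per length, as CPM per kb of merged GENCODE M21 exons. At 24 h Zfp42 led with 549.9 ± 4.84 (SD, n = 3), followed by Nanog with 309.9 ± 10.99 and Esrrb with 94.1 ± 2.10. Nr0b1 came next with 77.5 ± 2.72. A lower tier held Tcl1 at 32.9 ± 0.76, Tfcp2l1 at 31.1 ± 0.995 and Tbx3 at 25.2 ± 2.30, and then Nr5a2 at 14.5 ± 0.40 and Prdm14 at 13.2 ± 0.49. Only Tcl1 and Tfcp2l1 overlapped among neighbours at 24 h. At 48 h Zfp42 still led with 262.9 ± 12.6 CPM per kb and Nanog followed with 77.8 ± 2.89. Nr0b1, at 60.5 ± 1.62, now stood above Esrrb, at 33.9 ± 0.10. Tbx3 had dropped from the seventh place to the last, with 2.12 ± 0.11, and overlapped Prdm14 at 2.28 ± 0.31. Tfcp2l1 (6.55 ± 0.12) and Tcl1 (6.03 ± 0.69) overlapped as well, and Nr5a2 stood at 4.65 ± 0.10. With the longest coding transcript as length, the top 4 places were the same at both times. Tbx3 then stood above Tfcp2l1 at 24 h, overlapping it (33.5 and 31.7). At 48 h Tcl1 stood above Tfcp2l1 without overlap (7.95 and 6.67), as did Tbx3 above Prdm14 (2.82 and 2.28), so the order of the lower tier depends on the length taken.

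**Figure D3:**
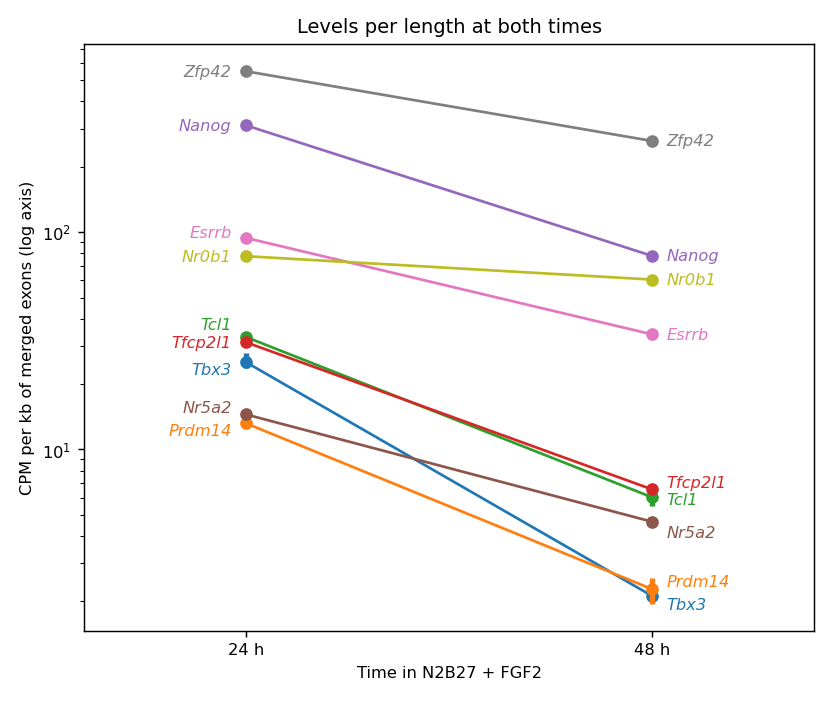
CPM per kb of merged exons at 24 h and 48 h on a log axis; points are means of 3 libraries, thick bars the range, and lines join the same gene. The line of Nr0b1 is the flattest and crosses that of Esrrb, and the line of Tbx3 is the steepest, ending with Prdm14 near 2 CPM per kb.

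The 9 genes together summed to 3026, 3054 and 3156 CPM at 24 h and to 1123, 1063 and 1124 CPM at 48 h, so 35.8% of the sum was left. Its make-up shifted toward the members that fell least. Per length, Zfp42 made up 47.9% ± 0.50 of the sum at 24 h and 57.6% ± 0.55 at 48 h, and Nr0b1 6.76% ± 0.285 and 13.3% ± 0.19 (SD, n = 3). The share of Nanog went from 26.98% ± 0.50 to 17.0% ± 0.03 and that of Tbx3 from 2.19% ± 0.16 to 0.464% ± 0.0115. None of these shares overlapped between the times. The share of Esrrb moved from 8.19% ± 0.04 to 7.42% ± 0.29.

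**Figure D4:**
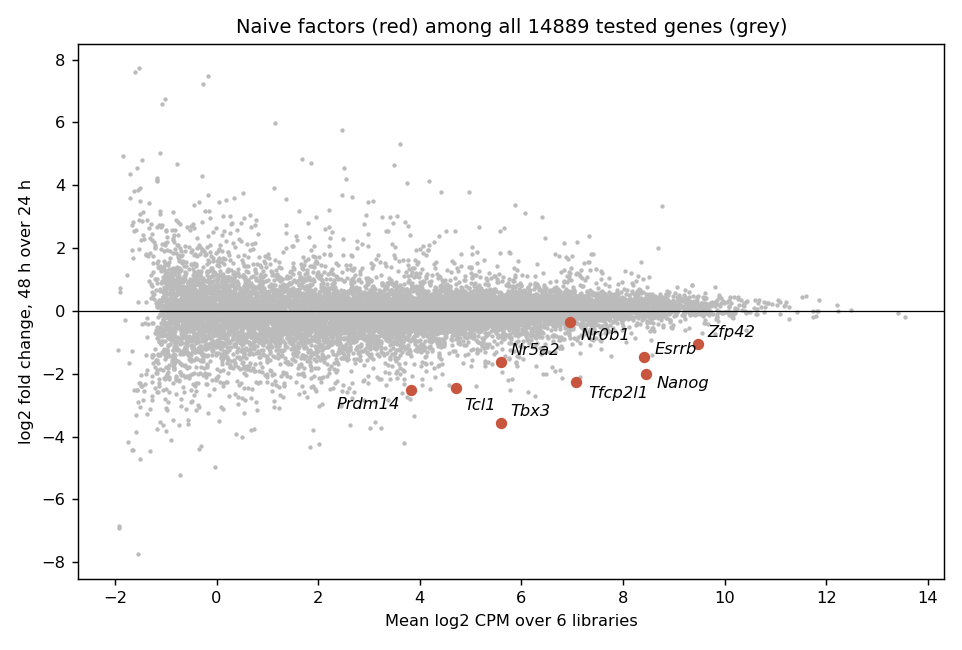
Log2 fold change (48 h over 24 h) against mean log2 CPM over the 6 libraries for the 14889 tested genes (grey), with the 9 members in red. The members lie below 0 at middle to high abundance, and Nr0b1, at -0.36, lies among the many grey points, 22% of which have a more negative change.

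Promoter sequence is shown for Zfp42 and Nanog, the most abundant members, and for Nr0b1, the one that fell least. RefSeq promoters of GRCm38.p6, from 250 bases before to 50 bases after a start, were held for 7 of the 9 members in 10 windows; Tbx3 and Prdm14 had no entry. The 250 bases before the start are printed 5′ to 3′, with capitals for the octamer core TTTGCAT (the letters read by Pou5f1), the SOX letters ACAATG and the KLF box GGGNGTG (the letters read by Klf2, Klf4 and Klf5), on either strand.
Nanog, chr6:122707239-122707488, plus strand: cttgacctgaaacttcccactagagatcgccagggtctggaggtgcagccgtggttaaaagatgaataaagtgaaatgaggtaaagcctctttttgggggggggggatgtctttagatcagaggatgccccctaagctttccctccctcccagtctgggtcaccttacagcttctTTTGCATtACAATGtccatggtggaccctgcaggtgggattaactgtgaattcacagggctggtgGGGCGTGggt
Zfp42, chr8:43307010-43307259, minus strand: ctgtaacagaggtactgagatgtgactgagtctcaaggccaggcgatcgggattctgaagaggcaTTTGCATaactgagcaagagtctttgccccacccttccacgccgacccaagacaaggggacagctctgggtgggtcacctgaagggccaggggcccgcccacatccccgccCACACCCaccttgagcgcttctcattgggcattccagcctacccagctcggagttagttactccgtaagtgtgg
Nr0b1, chrX:86191525-86191774, plus strand: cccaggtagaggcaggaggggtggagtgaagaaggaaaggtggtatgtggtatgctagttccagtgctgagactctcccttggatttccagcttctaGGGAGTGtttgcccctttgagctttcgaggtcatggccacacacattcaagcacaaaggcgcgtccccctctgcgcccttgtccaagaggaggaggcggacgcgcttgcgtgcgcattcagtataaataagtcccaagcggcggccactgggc
In Nanog the octamer core begins 75 bases before the start and the SOX letters begin 67 bases before it, on the same strand and not overlapping. In Zfp42 the octamer core begins 185 bases before the start. The Nr0b1 window holds neither, and its KLF box begins 153 bases before the start. Across the member windows the octamer core was in 3 of 10 (both Nanog windows, which share the site, and Zfp42), against 4.63% of all 32851 promoters of 300 bases. The SOX letters were in 3 (both of Nanog and 1 of Esrrb) against 12.6%, and the KLF box in 7, of 6 genes, against 29.2%. A STAT match TTCNNNGAA was in 1 window, of Esrrb, against 8.3% of all promoters, and a T-box match AGGTGTG in 1, of Tcl1, against 5.84%. The nuclear receptor letters AAGGTCA (4.72% of all promoters), the TCF letters CTTTGAT (3.73%) and a pair of CCAG letters spaced as Tfcp2l1 reads them (3.44%) were in none of the 10. A match is a description of letters, and their absence in these windows says nothing of the factors elsewhere.

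The genes that read these letters moved by different amounts. Pou5f1 held 1111 ± 1.99 CPM at 24 h and 1058 ± 15.2 at 48 h (SD, n = 3), a log2 fold change of -0.07 (adjusted p = 0.000662, edgeR), and Sox2 had a log2 fold change of -0.37. Klf4 fell by 2.17, Klf2 by 1.49 and Klf5 by 1.47 on the log2 scale.

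Other genes linked to the naive state did not all follow the core. Of 12 such genes, 6 were lower and 6 higher at an adjusted p under 0.05 (edgeR). The list is not confined to genes particular to that state, as Sall4 is also among the embryonic stem cell markers above. Its split and median depend on which genes were listed. Their median log2 fold change was -0.08. Over all tested genes 31.9% were called lower and 30.9% higher. The 6 that fell were Spic (-3.08), the Kruppel-like genes Klf4, Klf2 and Klf5 given above, Stat3 (-1.04), which carries the LIF signal, and Mybl2 (-0.38). Spic rested on 14 counts in its lowest library. The 6 that rose were Tfe3 (1.25), Gbx2 (0.74), Dppa3 (0.63), Fgf4 (0.30), Rif1 (0.23) and Sall4 (0.22). Fgf4 encodes the growth factor the cells make themselves, and Dppa3, with fractional counts, stayed at or below 3.96 CPM. All 8 general pluripotency genes were also called, 5 upward and 3 downward, where 62.8% of all genes were called in either direction. Their median was 0.35, led by the RNA-binding protein gene Lin28a (1.55).

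The signalling inputs that the 2iLIF medium acts on held genes called in each direction, as did the whole table, where 30.9% of genes were called higher and 31.9% lower. Of 14 such genes, 7 rose, 6 fell and 1 did not pass (median log2 fold change 0.04). On the LIF side Socs3, a direct STAT3 target, fell by 1.32 and the receptor subunit gene Il6st by 0.71 on the log2 scale. Jak1 changed by -0.19 and the receptor gene Lifr by -0.08, a call lost with DESeq2 and without 24 h replicate 2, 48 h replicate 1 or 48 h replicate 3. On the WNT side Ctnnb1 rose by 0.18 and the repressor gene Tcf7l1 by 0.08, a call lost with library size as scaling and without 24 h replicate 1 or 3, while Lef1 rose by 3.13. Gsk3a had -0.003 (adjusted p = 0.937, edgeR), while Gsk3b fell by 0.23 (adjusted p = 2.79e-06, edgeR). The kinase genes Map2k1 and Mapk3 changed by -0.39 and 0.33.

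Genes of the exit from naive pluripotency and of the formative state moved the other way. Of 14, 11 rose, 2 fell and 1 did not pass, with a median log2 fold change of 1.15. Among all tested genes 30.9% were called higher and 31.9% lower. Fgf5 (4.63), Pou3f1 (3.79), Dnmt3b (3.35), Sox3 (2.14), Dnmt3a (2.02), Otx2 (1.74), Zic2 (1.22) and Foxd3 (1.08) rose by over 1. The rise of Etv5 was 0.08, and its call was lost with library size as scaling. Etv4 and Fnip1 fell by 0.34 and 0.47. This list holds genes that earlier results of these data had shown to rise, so its direction is not independent evidence.

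Of 7 partners of the core proteins, 3 rose, 2 fell and 2 did not pass, near the shares of all genes (30.9% higher and 31.9% lower). Cbfa2t2, the corepressor that binds Prdm14, fell by 0.61, and Ncoa3, a coactivator of Esrrb, by 0.16. Dnmt3l, which Prdm14 is known to repress along with Dnmt3b, rose by 1.11. Among the AKT genes that Tcl1 acts on, Akt1 and Akt2 had log2 fold changes of 0.06 and -0.002 (adjusted p = 0.22 and 0.966, edgeR).

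Of the close paralogs tested, 1 fell. Of 18 paralogs 9 had enough counts to be tested, of which 3 rose, 1 fell and 5 did not pass. The shares over all tested genes were 30.9% higher and 31.9% lower. The median log2 fold change of the tested paralogs was 0.12. Esrra and Tfcp2, relatives of Esrrb and Tfcp2l1, had 0.12 and 0.05 (adjusted p = 0.18 and 0.565, edgeR). Ubp1 and Yy1, relatives of Tfcp2l1 and Zfp42, rose by 0.21 and 0.16. The relative of Prdm14, Prdm1, fell by 0.68, and the T-box gene Tbx4 rose by 1.36 on 31 to 126 counts. The T-box gene Tbx2 had -0.62 on 6 to 18 counts and did not pass (adjusted p = 0.161, edgeR). The paralogs Nr5a1, Tcl1b1, Tcl1b3, Tcl1b4 and Tcl1b5 had 0 counts in every library, and Esrrg, Nr0b2, Tbx5 and Tcl1b2 at most 4.

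**Figure D5:**
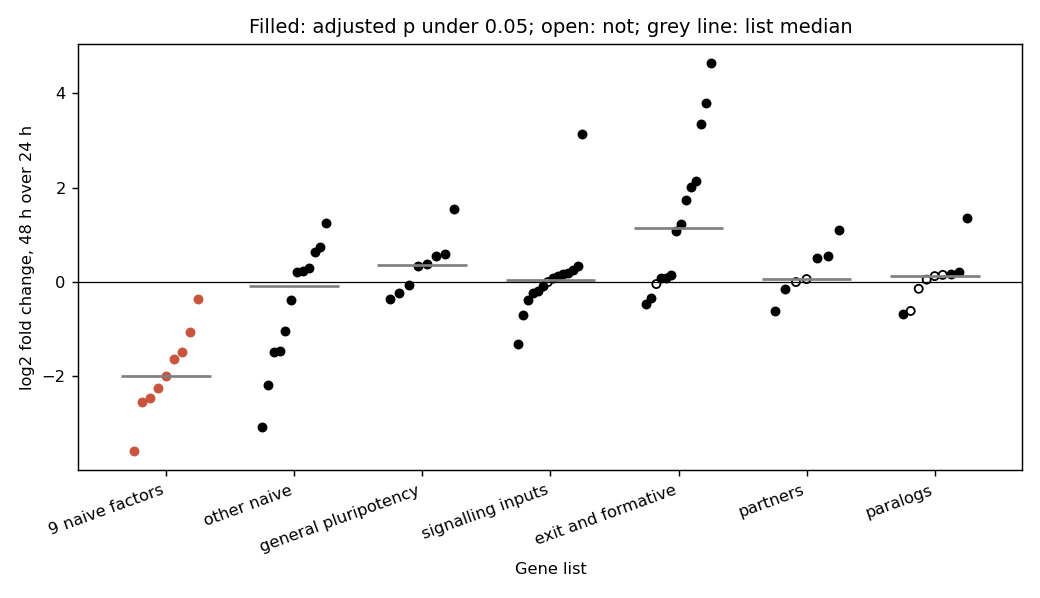
Log2 fold change (48 h over 24 h) of each tested gene in the 7 lists; filled points passed an adjusted p under 0.05 in edgeR, open points did not, and grey lines are medians. The 9 naive factors (red) lie wholly below 0 with a median of -1.99, and the exit and formative list has a median of 1.15.

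For each member, the gene outside the 9 with the most similar course over the 6 libraries was found among 10419 genes whose mean over the 6 libraries was at least 5 CPM, by the root mean square difference of centred log2 CPM. For Nanog it was Ahnak (0.021), for Esrrb Cobl (0.034), for Nr5a2 Dnajc6 (0.035) and for Nr0b1 Git2 (0.014). For Zfp42 it was Decr2 (0.014), for Tfcp2l1 Zc3hav1 (0.051) and for Tbx3 Islr2 (0.085). Bcl2l14 was nearest to both Prdm14 (0.049) and Tcl1 (0.036). A course within 0.1 of the member was shared by 1355 genes for Nr0b1, 120 for Zfp42, 19 for Nanog and 2 for Tbx3. With 2 times, a course is mostly the fold change already given. These counts therefore largely follow how many genes have a fold change near that of the member.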

How the data were processed

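The authors deposited 1 table of RSEM expected counts per gene, neither scaled for depth nor for length, with 1 column per library; 0 columns lacked a sample. Per the submitters' processing notes, cutadapt 1.9.1, STAR 2.5.2, RSEM 1.3.0 and build GRCm38 were used; their settings, the annotation and the use of strand are not given in the sources used here. Symbols, positions and exon lengths came from GENCODE M21 (GRCm38), which matched 51633 of 51912 identifiers.

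Counts were rounded and filtered with filterByExpr (minimum count of 10). Libraries were scaled by TMM, and 48 h was compared with 24 h by edgeR's quasi-likelihood test (edgeR 4.0.16 under R 4.3.3). The model held group alone, with Benjamini-Hochberg adjustment over all genes. A change was called at an adjusted p under 0.05. A fall of more than 2-fold was tested with glmTreat. The standard error is the log2 fold change divided by the square root of F, and 95% intervals use the t quantile of the fit. The code was tested on simulated data.

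The members and lists were chosen with earlier results of these data known. Named genes are the members, genes of the fixed lists and the 1 nearest non-member of each member; some list genes are counted but not reported here by name. Alternatives were RLE, upper quartile and library size scaling, 2 other filters, DESeq2 1.42.0, limma 3.58.1 voom, unrounded counts, a replicate block, a threshold of 0.01 and leaving out each library. A second transcript length was added after the data were seen. Replicate pairs differed by at least 1.82 times counting noise (chi-square per degree of freedom), and all 6 were counted as libraries. That value cannot tell separate cultures from separate preparations of 1 culture.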

Additional observations from a re-analysis of the deposited data

How the results depend on the processing

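All 9 naive factors were called lower under each of the 16 alternatives, and the count of changed genes lay between 7810 (threshold of 0.01) and 9792 (every gene with a count) around 9345. The count of factors called more than 2-fold lower was 8 and became 7 where Zfp42 lost its call. Under library size scaling alone, 39.9% of changed genes were higher at 48 h against 49.2%, and DESeq2 called 7986 genes. With the replicate block 9235 genes and all 9 factors changed, and 8 were more than 2-fold lower. The block changed no call of a factor. The deviations of same-numbered libraries correlated at -0.05, -0.04 and -0.01. These values gave no sign of pairing but cannot exclude it, because counting noise in genes of low count can hide a shared deviation. The labels do not say whether the numbers pair samples. Of 64 tested list genes outside the core, 5 changed call in some alternative (Lifr, Tcf7l1, Etv5 and Yy2 among them) and 3 that were not called changed sign (Gsk3a, Akt2 and Tfcp2). The cause was not tested. Depth limits Prdm14 most, with 109 counts in its lowest library.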
